A study of Mus musculus with 4 samples.

Results

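The 9 genes described here encode receptors, or parts of receptors, through which group 2 innate lymphoid cells (ILC2s) can sense products of nerves and of the cells around them. They were chosen by symbol from 22083 genes with a value in each library. They are Nmur1, Vipr1, Vipr2, Calcrl, Ramp1, Ramp3, Ret, Gfra2 and Chrna4, and no adrenergic receptor is among them. RNA was sequenced from ILC2s sorted from the small intestinal lamina propria (SI-ILC2s, 2 libraries) and from ILC2s sorted from mesenteric white adipose tissue (WAT-ILC2s, 2 libraries). All mice were wild-type C57BL/6 animals aged 9 weeks, with no treatment named in the labels. The labels give neither the sort markers nor the mice behind each library, so a p-value here reflects only how far these libraries spread, which may be technical.

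ILC2s, lymphocytes of barrier tissues that carry no antigen receptor, release type 2 cytokines such as IL-5 and IL-13, and many of them lie close to nerve fibres. Neuromedin U, a peptide of enteric cholinergic neurons, activates mouse ILC2s through NMUR1, which couples to Gq proteins and calcium release. Vasoactive intestinal peptide (VIP) acts on VIPR1 and VIPR2, which raise cyclic AMP through Gs. The calcitonin receptor-like receptor CALCRL reaches the cell surface only with a RAMP protein, and the RAMP sets its ligand: with RAMP1 it binds calcitonin gene-related peptide (CGRP), and with RAMP2 or RAMP3 it binds adrenomedullin. RET is a receptor tyrosine kinase that needs a GFRA co-receptor to bind ligands of the GDNF family, with GFRA2 preferring neurturin. CHRNA4 is a subunit of ligand-gated nicotinic acetylcholine receptors.

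The promoters of Calcrl, Ramp1 and Ramp3 are shown because these genes encode CALCRL and alternative partners of it, and differed between the tissues in opposite directions. The promoter of Nmur1 is shown because expression of this gene is widely used to mark ILC2s. RefSeq sequences (GRCm38.p6) of 300 bases, 250 before and 50 after a transcript start, were found for 7 of the 9 genes in 8 windows. Capitals mark any match, on either strand, to TGACG (a half-site of cyclic AMP response elements), TGANTCA (AP-1), GATAA (GATA factors) or ACGTG (hypoxia-inducible factors), of which TGACG and ACGTG can overlap.
Calcrl, chr2:84425217-84425516, minus strand: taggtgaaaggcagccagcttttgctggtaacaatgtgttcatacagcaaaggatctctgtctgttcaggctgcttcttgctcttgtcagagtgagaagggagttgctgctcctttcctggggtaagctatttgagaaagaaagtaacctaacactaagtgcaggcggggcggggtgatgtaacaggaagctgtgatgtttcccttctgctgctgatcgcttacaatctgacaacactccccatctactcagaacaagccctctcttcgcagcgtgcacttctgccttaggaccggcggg
Ramp1, chr1:91179572-91179871, plus strand: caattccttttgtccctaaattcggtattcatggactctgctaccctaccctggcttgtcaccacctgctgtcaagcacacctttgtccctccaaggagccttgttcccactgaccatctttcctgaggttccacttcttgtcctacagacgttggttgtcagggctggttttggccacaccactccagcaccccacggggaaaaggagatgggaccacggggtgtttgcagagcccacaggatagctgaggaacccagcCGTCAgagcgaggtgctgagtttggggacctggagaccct
Ramp3, chr11:6658283-6658582, plus strand: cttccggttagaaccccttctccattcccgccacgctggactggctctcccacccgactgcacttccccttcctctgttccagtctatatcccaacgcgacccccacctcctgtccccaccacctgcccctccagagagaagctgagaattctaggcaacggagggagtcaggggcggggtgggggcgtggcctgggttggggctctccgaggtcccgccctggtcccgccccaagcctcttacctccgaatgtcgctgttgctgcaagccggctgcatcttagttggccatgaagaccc
Nmur1, chr1:86388092-86388391, minus strand: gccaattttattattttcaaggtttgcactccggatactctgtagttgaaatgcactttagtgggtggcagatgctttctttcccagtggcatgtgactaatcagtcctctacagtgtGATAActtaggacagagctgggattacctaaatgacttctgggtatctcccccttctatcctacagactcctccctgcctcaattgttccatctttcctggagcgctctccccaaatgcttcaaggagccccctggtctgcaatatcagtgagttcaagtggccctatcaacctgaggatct

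The Ramp1 window held 1 match to TGACG, and the Nmur1 window shown held 1 match to GATAA. The other Nmur1 window, chr1:86389312-86389611 with 57.0% G and C, held no match to the 4 motifs. Both Nmur1 windows lie inside the annotated span of the gene, 86386303 to 86426228, rather than at its outer end. Among 32851 promoter windows of the same length, 20.8% held TGACG, 7.8% TGANTCA, 25.4% GATAA and 19.6% ACGTG. Calcrl and Ramp3 held no match to any of the 4 motifs in these windows. The share of G and C was 50.7% for Calcrl, 55.7% for Ramp1, 63.7% for Ramp3 and 47.0% for the Nmur1 window shown. These matches describe the letters of the windows, and no binding was measured.

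Ret was 33.6 times as high in SI-ILC2s as in WAT-ILC2s, the largest ratio among the 9 receptor genes. Ramp3, by far the most abundant of them, and Vipr2 were also higher in SI-ILC2s, whereas Ramp1 and Calcrl were higher in WAT-ILC2s. Nmur1 was 1.36 times as high in SI-ILC2s and missed the threshold. Gfra2, Vipr1 and Chrna4 stayed below 0.14 RPKM in every library. In sorted bulk samples, fewer cells of a type and less RNA per cell cannot be told apart, and any effect of how cells were isolated from a tissue cannot be told apart from the tissue itself.

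Values are RPKM, reads scaled to gene length and library depth, as the authors deposited them. A gene was tested if it reached 1 RPKM in at least 2 libraries, which 8230 genes did. A log2 change is the SI-ILC2 mean of log2(RPKM + 1) less that of WAT-ILC2s, a scale that shrinks the change of low genes, and calls are limma tests with a Benjamini-Hochberg adjusted p below 0.05 over all tested genes. Of the 9 receptor genes, 6 were tested. Among these, 3 were called with SI-ILC2s higher, 2 with WAT-ILC2s higher and 1 was not called. Of all tested genes, 17.9% were called toward SI-ILC2s, 29.6% toward WAT-ILC2s and 47.5% in either direction. In numbers, 1470 genes were called toward SI-ILC2s and 2436 toward WAT-ILC2s, a split that depends on library scaling: it was 1956 and 1817 after median-of-ratios scaling, 1772 and 1886 after quantile normalization, and 1125 and 2891 with equal sums. Ramp1 passed the filter only through WAT-ILC2s, so for Ramp1 a difference was built into passing the filter. Ret reached 1 RPKM in both SI-ILC2 libraries but in only 1 WAT-ILC2 library, so it would not have passed on WAT-ILC2s alone. The same holds for Gnaq, Chrne and Frs2, which are named below. As a description, the median log2 change of the 6 was 0.48, against -0.15 for all tested genes.

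**Figure D1:**
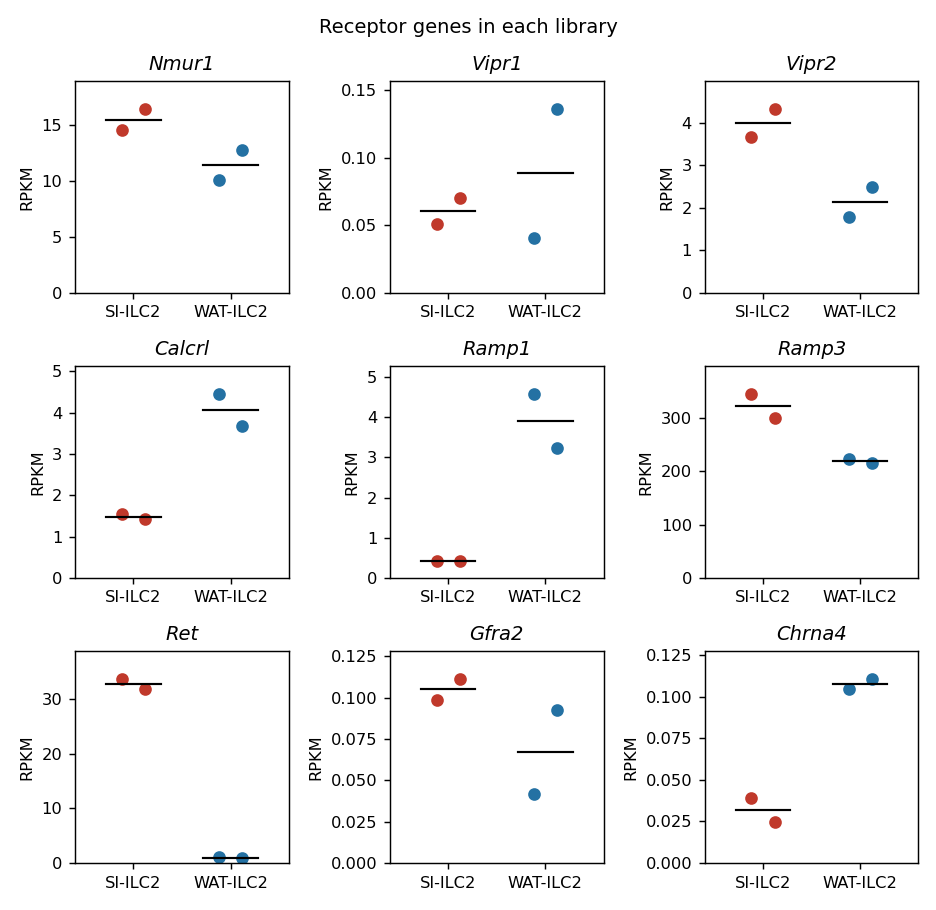
RPKM (vertical axes, each from 0 with its own scale) of the 9 receptor genes, with a point per library, SI-ILC2 left and WAT-ILC2 right, and a line at the mean of 2 libraries. The libraries of the tissues are separated for every gene but Vipr1, with SI-ILC2s above for 5 genes and WAT-ILC2s above for 3. Among all 22083 genes, 23.0% and 30.8% were separated in these directions. Gfra2 and Chrna4 are counted here although they did not reach the filter.

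Nmur1 (chromosome 1, 86386303 to 86426228), the neuromedin U receptor gene, had 14.5 and 16.5 RPKM in the SI-ILC2 libraries and 10.1 and 12.7 RPKM in the WAT-ILC2 libraries. The tissues did not overlap, but the gap between the nearest libraries of different tissues was smaller than the spread within WAT-ILC2s. The log2 change was 0.41 ± 0.16 (SE), with a 95% interval of 0.02 to 0.81, and the limma adjusted p of 0.078 missed the threshold. It passed after median-of-ratios scaling of the libraries (adjusted p = 0.021), which also moved the median of all genes to 0.00, without WAT-ILC2 replicate 2 (adjusted p = 0.0235) and with a replicate block (adjusted p = 0.000321), the low end of a range that reached 0.325 over the 14 alternatives tried. Nmur2, the second neuromedin U receptor gene, stayed at 0.0159 and 0.0102 RPKM in SI-ILC2s, against 0.0273 and 0.0369 RPKM in WAT-ILC2s. The ligand gene Nmu reached 0.0635 and 0 RPKM in SI-ILC2s, against 0 and 0.0918 RPKM in WAT-ILC2s. Of 8 neuromedin system genes, Nmur1 and Nmb were tested, and neither was called.

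Among the VIP receptors, Vipr2 (chromosome 12, 116077726 to 116146261) had the highest RPKM, a per-length level, in both tissues. It had 3.68 and 4.33 RPKM in SI-ILC2s and 1.79 and 2.48 RPKM in WAT-ILC2s, so the tissues did not overlap. It rose by 0.68 ± 0.17 on the log2 scale (SE, limma adjusted p = 0.019), a ratio of means of 1.88. The call was lost without SI-ILC2 replicate 2 (adjusted p = 0.0835, within a range of 2.41e-05 to 0.0835 over the alternatives). Vipr1 (chromosome 9, 121642716 to 121672954) had 0.051 and 0.0701 RPKM in SI-ILC2s and 0.0406 and 0.137 RPKM in WAT-ILC2s. These values overlap and correspond to roughly 23 and 24 reads in SI-ILC2s and 13 and 52 reads in WAT-ILC2s. Adcyap1r1, the receptor gene preferring the related peptide PACAP, was at 0.0574 and 0.0448 RPKM in SI-ILC2s, against 0.0579 and 0.119 RPKM in WAT-ILC2s. Vip itself, a neuronal product in the gut, had 0.00860 and 6.01 RPKM in the SI-ILC2 libraries and 0.0354 and 0.0398 RPKM in the WAT-ILC2 libraries, so only SI-ILC2 replicate 2 held it above 0.1 RPKM.

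The CALCRL receptor genes differed in opposite directions. Calcrl (chromosome 2, 84330626 to 84425411), the ligand-binding core, had 1.54 and 1.43 RPKM in SI-ILC2s and 4.46 and 3.68 RPKM in WAT-ILC2s. Its values did not overlap, and it fell by 1.03 in SI-ILC2s (log2 scale, SE 0.15, limma adjusted p = 0.0028), being 2.75 times as high in WAT-ILC2s. Ramp1 (chromosome 1, 91179822 to 91225196), the partner that makes the CGRP receptor, had 0.413 and 0.416 RPKM in SI-ILC2s and 4.59 and 3.25 RPKM in WAT-ILC2s. Its WAT-ILC2 values were thus 9.45 times the SI-ILC2 values on average, with a log2 change of -1.78 ± 0.17 (SE, limma adjusted p = 0.0007). Ramp1 passed the filter only through WAT-ILC2s, so a difference was built into its being tested. Over the 14 alternatives, which refit these same libraries, the log2 change was -1.39 to -0.87 for Calcrl and -2.94 to -1.59 for Ramp1.

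Ramp3 (chromosome 11, 6658521 to 6677475), a partner for adrenomedullin, had 346 and 301 RPKM in SI-ILC2s and 224 and 216 RPKM in WAT-ILC2s. By its mean it ranked 66 of all 22083 genes in SI-ILC2s and 91 in WAT-ILC2s. It was higher in SI-ILC2s by 0.55 ± 0.17 on the log2 scale (SE, limma adjusted p = 0.038), a ratio of means of 1.47. This call was close to the threshold and was lost without SI-ILC2 replicate 1, SI-ILC2 replicate 2 or WAT-ILC2 replicate 2 (adjusted p = 0.319, 0.158 and 0.0584), and with equal sums (0.0837), quantile normalization (0.154), no filter (0.0901) and a robust prior (0.0504). Over the 14 alternatives its adjusted p ran from 2.99e-05 to 0.319. A pseudogene on the opposite strand, Gm11978, covers 7.3% of the Ramp3 exons.

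Ramp2, which also pairs with CALCRL for adrenomedullin, was at 0.594 and 0.813 RPKM in SI-ILC2s, against 1.83 and 1.29 RPKM in WAT-ILC2s, and was called higher in WAT-ILC2s (log2 change -0.58, limma adjusted p = 0.021). Like Ramp1, it passed the filter only through WAT-ILC2s, so a difference was built into its being tested. In GENCODE M21, 33.4% of its exons are shared with Vps25 on the same strand. On this per-length scale Ramp3 made up 99.7% ± 0.0821 of the summed RPKM of Ramp1, Ramp2 and Ramp3 in SI-ILC2s and 97.6% ± 0.516 in WAT-ILC2s (SD, n = 2 each), and Ramp1 made up 0.128% ± 0.0131 in SI-ILC2s and 1.73% ± 0.368 in WAT-ILC2s. Ramp3 RPKM was 225 and 211 times Calcrl RPKM in the SI-ILC2 libraries and 50.2 and 58.6 times in the WAT-ILC2 libraries. Ramp1 RPKM was 0.269 and 0.291 times Calcrl RPKM in SI-ILC2s and 1.03 and 0.882 times in WAT-ILC2s, so Ramp1 and Calcrl were near parity in fat and not in the intestine. These ratios are unaffected by library scaling and were not tested, since 2 libraries against 2 cannot reach an exact two-sided permutation p below 0.333.

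Calcrl and Ramp2 are also expressed by endothelial cells, whose markers were present at low levels. The 10 endothelial markers summed to 5.67 and 10.3 RPKM in SI-ILC2s and to 10.2 and 14.1 RPKM in WAT-ILC2s, and none was listed at 0 in all libraries. Of the 10, 6 lay higher in both WAT-ILC2 libraries, as did 30.8% of all genes and 45.9% of tested genes, such as Cdh5 at 0.175 and 0.332 RPKM in SI-ILC2s against 0.592 and 0.821 RPKM in WAT-ILC2s, and 1, Pecam1, lay higher in both SI-ILC2 libraries. The 7 fibroblast markers summed to 1.17 and 1.53 RPKM in SI-ILC2s and to 10.2 and 4.85 RPKM in WAT-ILC2s, led by Dcn, with none at 0 in all libraries. Of the 7, 5 lay higher in both WAT-ILC2 libraries and 1 in both SI-ILC2 libraries, as did 30.8% and 23.0% of all genes. The latter was Pdgfrb, at 0.707 and 0.994 RPKM in SI-ILC2s against 0.316 and 0.373 RPKM in WAT-ILC2s. The 6 adipocyte markers summed to 1.03 and 0.756 RPKM in SI-ILC2s, against 5.26 and 4.52 RPKM in WAT-ILC2s, also with none at 0 in all. Fabp4 made up most of the WAT-ILC2 sum, at 0.257 and 0.172 against 4.32 and 3.43 RPKM. Cfd was also higher in both WAT-ILC2 libraries, at 0.0142 and 0 against 0.351 and 0.297 RPKM, while Adipoq, Plin1, Lep and Lipe overlapped between the tissues. The part of these marker lists in the differences of Calcrl, Ramp1 and Ramp2 was not tested.

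**Figure D2:**
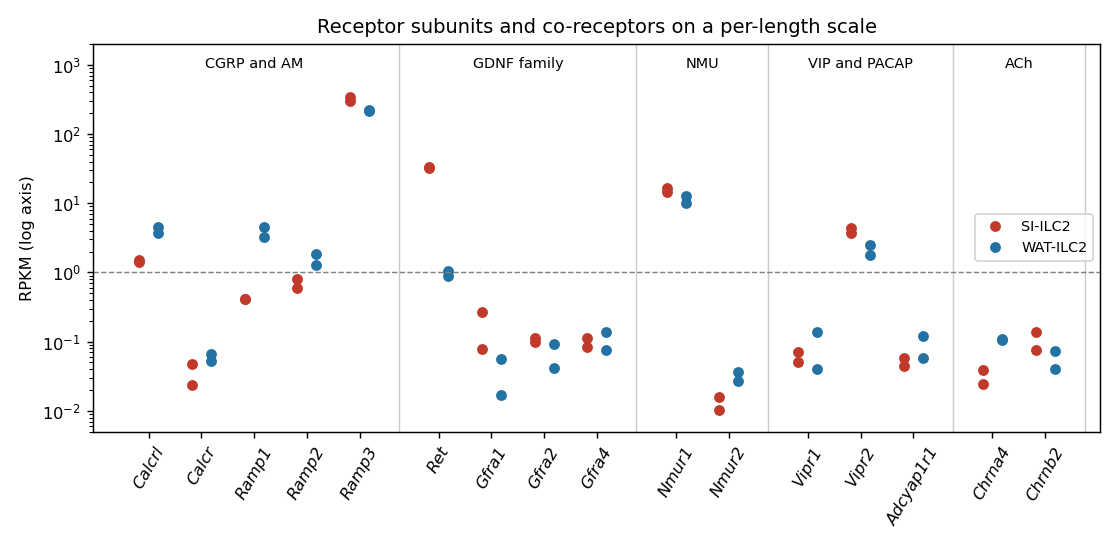
RPKM on a log axis of the receptor genes with their partners and paralogs, a point per library with SI-ILC2 (red) left of WAT-ILC2 (blue), grouped by ligand (AM, adrenomedullin; ACh, acetylcholine), and a dashed line at 1 RPKM. Ramp3 stands at 216 RPKM or more in all libraries, Ret near 33 RPKM in SI-ILC2s and near 1 RPKM in WAT-ILC2s, and the GFRA genes below 0.3 RPKM.

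RNA of ligand genes of these receptors was also present in the libraries, while the peptides were not measured. Calca, the gene of CGRP and calcitonin, had 375 and 279 RPKM in SI-ILC2s, against 303 and 261 RPKM in WAT-ILC2s, and missed the threshold (log2 change 0.20, limma adjusted p = 0.46). Adm, the adrenomedullin gene, was higher in WAT-ILC2s, at 1.84 and 1.39 RPKM in SI-ILC2s, against 7.32 and 8.08 RPKM in WAT-ILC2s (log2 change -1.74, SE 0.16, limma adjusted p = 0.00065). The part of other cell types in the difference of Adm was not tested. Of 7 tested genes in the list of the CGRP and adrenomedullin system, 1 was called higher in SI-ILC2s (Ramp3) and 4 were called higher in WAT-ILC2s (Ramp1, Adm, Calcrl and Ramp2). Of all tested genes, 17.9% and 29.6% were called in these directions. The median change of the list was -0.58, a median that Ramp1 and Ramp2 entered only through WAT-ILC2s. The call of Ramp3 was lost with equal sums and quantile normalization, among other alternatives. With no filter, after quantile normalization and without SI-ILC2 replicate 1, 3 genes of the list were called toward WAT-ILC2s. Calcr, the calcitonin receptor gene, stayed below 0.1 RPKM in all libraries.

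Ret (chromosome 6, 118151745 to 118197718) had 33.7 and 31.8 RPKM in SI-ILC2s and 1.05 and 0.896 RPKM in WAT-ILC2s. The lowest SI-ILC2 value was far above the highest WAT-ILC2 value. The log2 change was 4.09 ± 0.14 (SE, limma adjusted p = 5.1e-05), the ratio of means was 33.6, and Ret ranked 7 of the 8230 tested genes by its change toward SI-ILC2s. Its call held in all 14 alternatives, with log2 changes of 3.98 to 4.94. The WAT-ILC2 values correspond to roughly 397 and 398 reads, so Ret was low in fat but not at the limit of detection.

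The GFRA co-receptor genes stayed below 0.3 RPKM in every library. Gfra2 (chromosome 14, 70890120 to 70979838) had 0.0988 and 0.111 RPKM in SI-ILC2s and 0.0416 and 0.0923 RPKM in WAT-ILC2s, or roughly 27 and 23 reads against 8 and 21. Both SI-ILC2 values were the higher ones, by less than the spread between the WAT-ILC2 libraries at the nearest. Gfra1, the co-receptor gene for GDNF, was at 0.0794 and 0.270 RPKM in SI-ILC2s, against 0.0169 and 0.0556 RPKM in WAT-ILC2s, and Gfra4 at 0.0834 and 0.111 against 0.136 and 0.0759 RPKM. The ligand genes Gdnf and Nrtn stayed below 0.25 RPKM in every library. Of the 12 genes of GDNF family ligands and receptors, Ret was the only one tested.

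RET is also made by enteric neurons and by group 3 innate lymphoid cells (ILC3s), whose markers were therefore measured. The 10 neuronal markers summed to 1.91 and 3.57 RPKM in SI-ILC2s and to 1.11 and 1.504 RPKM in WAT-ILC2s. Of the 10, 9 stayed below 1 RPKM in every library, none was at 0 in all, and the exception was Uchl1 at 0.902 and 1.90 RPKM in SI-ILC2s, against 0.139 and 0.389 RPKM in WAT-ILC2s. The 6 ILC3 markers summed to 4.67 and 8.65 RPKM in SI-ILC2s and 4.87 and 10.8 RPKM in WAT-ILC2s. Of the 6, 2 lay higher in both SI-ILC2 libraries and 2 in both WAT-ILC2 libraries, as did 23.0% and 30.8% of all genes. Among the former was Il22, a cytokine gene of ILC3s, at 1.76 and 3.50 RPKM in SI-ILC2s, against 0.0649 and 0.0137 RPKM in WAT-ILC2s. The 5 markers of B and plasma cells summed to 24.6 and 18.9 RPKM in SI-ILC2s, against 3.07 and 2.49 RPKM in WAT-ILC2s. The part of the neuronal, ILC3 and B cell markers, none of which was at 0 in all libraries, in the difference of Ret was not tested. All 16 ILC2 markers were tested, of which 6 were called toward SI-ILC2s, 5 toward WAT-ILC2s and 5 were not called. Of all tested genes, 17.9% were called toward SI-ILC2s and 29.6% toward WAT-ILC2s. Gata3, the most abundant, had 354 and 377 RPKM in SI-ILC2s, against 338 and 397 RPKM in WAT-ILC2s. Il1rl1, the IL-33 receptor gene, was lower in SI-ILC2s, at 14.3 and 15.4 against 65.7 and 63.4 RPKM, as was Thy1, at 2.49 and 5.08 against 18.4 and 27.4 RPKM. Il17rb was higher in SI-ILC2s, at 164 and 141 against 14.3 and 10.3 RPKM, as was Icos, at 67.6 and 57.6 against 17.5 and 14.3 RPKM.

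**Figure D3:**
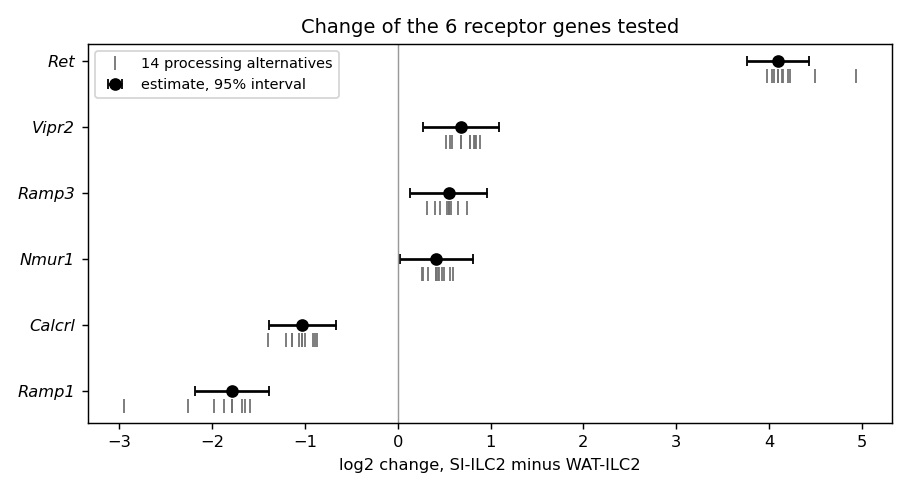
Log2 change (SI-ILC2 minus WAT-ILC2, horizontal axis) of the 6 receptor genes tested, as a point with its 95% interval, and below it the values under 14 processing alternatives as ticks. All values of a gene lie on the same side of 0, with Ret near 4.09, and Calcrl and Ramp1 below 0.

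Genes of RET adaptors and feedback changed in both directions. Of 18 tested, 5 were called higher in SI-ILC2s, 5 were called higher in WAT-ILC2s and 8 were not called, with a median change of -0.09. Of all tested genes, 17.9% were called toward SI-ILC2s, 29.6% toward WAT-ILC2s and 47.5% in either direction. The feedback inhibitor gene Spry1 had 11.5 and 12.5 RPKM in SI-ILC2s and 3.61 and 5.47 RPKM in WAT-ILC2s (log2 change 1.25, limma adjusted p = 0.0035), and Spry2 had 8.43 and 9.48 against 3.28 and 3.12 RPKM (log2 change 1.24, limma adjusted p = 0.0013). An annotated transcript on the opposite strand, Gm42922, covers 24.4% of the Spry1 exons. The adaptor genes Grb2 (log2 change 0.62) and Frs2 (0.44) and the transcription factor gene Etv5 (0.46) were also called higher in SI-ILC2s, Etv5 having passed the filter only through SI-ILC2s. Dok2, an adaptor that dampens receptor signalling, had 11.1 and 11.2 RPKM in SI-ILC2s and 38.7 and 44.3 RPKM in WAT-ILC2s (log2 change -1.80, limma adjusted p = 0.00045). Plcg1 (-0.81), Gab2 (-0.56), Cbl (-0.45) and Shc1 (-0.42) were the other genes called higher in WAT-ILC2s. The number called toward WAT-ILC2s was 1 after median-of-ratios scaling, quantile normalization or with no filter, and without either SI-ILC2 library 2 genes were called in each direction.

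Chrna4 (chromosome 2, 181018380 to 181043546) had 0.0388 and 0.0246 RPKM in SI-ILC2s and 0.105 and 0.111 RPKM in WAT-ILC2s, about 15 and 7 reads against 29 and 36. Its values did not overlap and were 3.39 times as high in WAT-ILC2s on average, at a level that did not enter the test. With no filter its log2 change was -0.10 (limma adjusted p = 0.12), and those of Gfra2 and Vipr1 were 0.05 and -0.04 (adjusted p = 0.53 and 0.72). Chrnb2, the usual partner of CHRNA4 in the brain, was at 0.139 and 0.0747 RPKM in SI-ILC2s, against 0.0402 and 0.0735 RPKM in WAT-ILC2s. Of 21 acetylcholine receptor genes, 20 stayed below 1 RPKM in all libraries. The exception was Chrne, a subunit of the muscle receptor, at 4.71 and 2.52 RPKM in SI-ILC2s, against 1.05 and 0.823 RPKM in WAT-ILC2s (log2 change 1.21, SE 0.24, limma adjusted p = 0.0081). Ly6e, whose product can bind nicotinic receptors, was the only tested gene of 9 for acetylcholine handling and was called higher in WAT-ILC2s, with 135 and 106 RPKM in SI-ILC2s against 274 and 180 RPKM in WAT-ILC2s (log2 change -0.89, limma adjusted p = 0.027). That call was lost without SI-ILC2 replicate 1, without SI-ILC2 replicate 2, with no filter and after median-of-ratios scaling.

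On the per-length RPKM scale, in SI-ILC2s the order by mean was Ramp3, Ret, Nmur1, Vipr2, Calcrl, Ramp1, Gfra2, Vipr1 and Chrna4, and in WAT-ILC2s it was Ramp3, Nmur1, Calcrl, Ramp1, Vipr2, Ret, Chrna4, Vipr1 and Gfra2. Neighbours in the SI-ILC2 order did not overlap in their library values. In WAT-ILC2s the values of Calcrl and Ramp1 overlapped, and those of Vipr1 overlapped with Chrna4 and with Gfra2. The tissues were separated for 8 of the 9 genes, 5 with SI-ILC2s above and 3 with WAT-ILC2s above, where 23.0% and 30.8% of all 22083 genes, and 29.8% and 45.9% of the tested genes, were so separated.

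**Figure D4:**
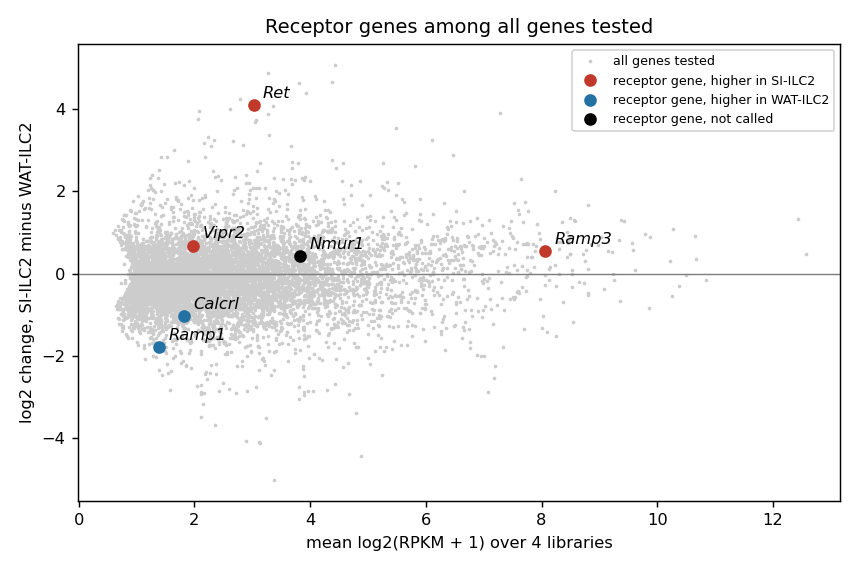
Log2 change (SI-ILC2 minus WAT-ILC2) against the mean log2(RPKM + 1) over 4 libraries for the 8230 genes tested (grey), with the 6 receptor genes tested in red (higher in SI-ILC2), blue (higher in WAT-ILC2) or black (not called). Ret lies at the upper edge with a change of 4.09, Ramp3 lies among the most abundant genes, and Nmur1 and Vipr2 lie within the bulk.

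Signalling genes downstream of these receptors were also counted. Of 9 tested genes of Gq and calcium coupling, the route of NMUR1, 1 was called higher in SI-ILC2s and 3 were called higher in WAT-ILC2s. Gnaq, which encodes the Gq alpha subunit, had 3.78 and 4.25 RPKM in SI-ILC2s and 1.02 and 0.823 RPKM in WAT-ILC2s (log2 change 1.38, SE 0.14, limma adjusted p = 0.00094). Gna15, the alpha subunit gene of the same class found in blood cells, had 5.50 and 5.62 RPKM in SI-ILC2s and 10.1 and 11.1 RPKM in WAT-ILC2s (log2 change -0.82, limma adjusted p = 0.0044). The inositol trisphosphate receptor gene Itpr2 (log2 change -1.23) and the phospholipase gene Plcb3 (-0.74) were also called higher in WAT-ILC2s, though Plcb3 passed the filter only through WAT-ILC2s. The 3 of 9 called toward WAT-ILC2s is near the 29.6% of all tested genes so called.

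For Gs and cyclic AMP coupling, the route of VIPR2 and CALCRL, 1 of 9 tested genes was called higher in SI-ILC2s and 5 were called higher in WAT-ILC2s. Gnas, the Gs alpha subunit gene, had 93.4 and 133 RPKM in SI-ILC2s and 96.2 and 119 RPKM in WAT-ILC2s, and was not called (log2 change 0.06, limma adjusted p = 0.84). Adcy7, an adenylyl cyclase gene, had 1.82 and 1.92 RPKM in SI-ILC2s and 5.79 and 5.87 RPKM in WAT-ILC2s (log2 change -1.25, limma adjusted p = 0.0011). The protein kinase A catalytic genes Prkacb and Prkaca changed by -1.22 and -0.90, and Prkar1a, a regulatory subunit gene, by 0.48 (limma adjusted p = 0.0026, 0.0046 and 0.043), and the cyclase gene Adcy4 by -0.65. Adcy4 passed the filter only through WAT-ILC2s, and the 5 of 9 stand beside 29.6% of all tested genes called in that direction. The call of Prkar1a was lost under 7 alternatives, among them equal sums and the fit without SI-ILC2 replicate 1. Among receptor kinases and arrestins, which switch such receptors off, 3 of 4 tested genes were called higher in WAT-ILC2s and none in SI-ILC2s, beside the same 29.6% and 17.9% of all tested genes. Adrbk1, the gene of GRK2, had 18.9 and 25.7 RPKM in SI-ILC2s and 43.1 and 57.9 RPKM in WAT-ILC2s (log2 change -1.14, limma adjusted p = 0.0065), and Grk6 and Grk5 changed by -0.92 and -0.74. Below the filter, Adrbk2 lay higher in SI-ILC2s, at 0.447 and 0.410 against 0.0992 and 0.0792 RPKM. Grk4 lay lower there, at 0.179 and 0.217 against 0.393 and 0.441 RPKM. With no filter, or a filter at a mean of 0.25 RPKM, 1 gene of this list was called toward SI-ILC2s.

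**Figure D5:**
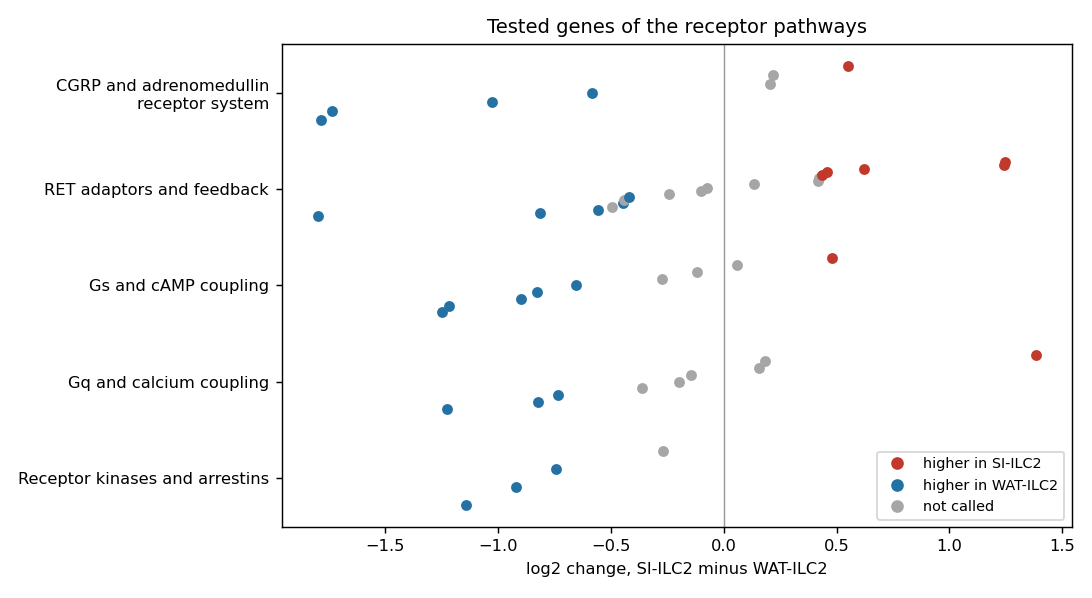
Log2 change (SI-ILC2 minus WAT-ILC2, horizontal axis) of each tested gene of 5 receptor pathway lists, a point per gene, red for called higher in SI-ILC2, blue for called higher in WAT-ILC2 and grey for not called. In the coupling and receptor kinase lists most called genes lie on the WAT-ILC2 side, with Gnaq at 1.38 and Prkar1a at 0.48 as the exceptions, where 29.6% of all tested genes were called toward WAT-ILC2s and 17.9% toward SI-ILC2s.

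The genes whose pattern over the 4 libraries was most like that of each tested receptor gene were found by the Euclidean distance of log2(RPKM + 1) values centred on each gene's mean. They describe these 4 libraries only. For Ret they were Gjb2, Dkk3 and Dhrs3 at distances of 0.150, 0.190 and 0.242. Dhrs3, which encodes a retinaldehyde reductase, had 38.1 and 33.4 RPKM in SI-ILC2s and 1.57 and 1.46 RPKM in WAT-ILC2s. For Ramp1 they were Prcp, Pafah2 and Dnaaf2 (0.0746, 0.0807 and 0.1005), and for Calcrl they were Ddhd2, Nsd1 and Eml4 (0.0186, 0.0241 and 0.0381). For Vipr2 they were Tcf25, Rnf4 and Usp19, for Nmur1 Cblb, Nrbp1 and Reps1, and for Ramp3 Gimap7, Pinx1 and Rnps1, all within 0.0427.

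The nearest protein-coding genes went in the direction of the receptor gene in some cases and the other way in others. Ncl, 26903 bases from Nmur1, was higher in both SI-ILC2 libraries like Nmur1, at 153 and 146 RPKM against 90.9 and 101 RPKM in WAT-ILC2s, and Ptma on the other side was lower there, at 387 and 402 against 430.0 and 498 RPKM. Beside Vipr2, Zfp386 was higher in SI-ILC2s like Vipr2, at 2.14 and 1.79 against 1.002 and 1.08 RPKM, and Wdr60 was lower, at 0.162 and 0.324 against 1.19 and 1.28 RPKM. Csgalnact2, 12605 bases from Ret, had 3.07 and 3.66 RPKM in SI-ILC2s and 1.73 and 2.49 RPKM in WAT-ILC2s, and Bms1 on the other side had 4.14 and 4.65 against 4.26 and 5.69 RPKM. Ube2f, 25108 bases from Ramp1, had 7.03 and 6.14 RPKM in SI-ILC2s and 3.08 and 3.17 RPKM in WAT-ILC2s, the opposite direction to Ramp1. Tfpi, 7444 bases from Calcrl, was lower in SI-ILC2s like its neighbour, at 1.87 and 1.29 RPKM against 2.59 and 2.64 RPKM.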

How the data were processed

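RNA of sorted ILC2s from small intestine and mesenteric fat (2 libraries each) went into libraries prepared by a KAPA kit, per the labels' protocols. The authors deposited RPKM values of all libraries in 1 table. Per the submitters' processing notes, the tools were STAR 2.6.0 and featureCounts 1.6.0 and the build was mm10 (GRCm38). Their gene models, strand setting and handling of multi-mapped reads were not given in the sources used here.

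Values were compared with limma 3.58.1 in R 4.3.3 on log2(RPKM + 1), with a variance trend and no covariate, in genes with at least 1 RPKM in at least 2 libraries. The prior added 4.39 degrees of freedom to 2. RPKM is not a count, so no count test was used. Python 3.11.15 was used for the tables and plots, and the fit was tested on simulated data. Replicates of a tissue had r = 0.985 (SI-ILC2) and 0.979 (WAT-ILC2) across tested genes.

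Value steps of single-exon genes (whole within 0.1 read for 84.9% to 87.4% of values, against 20.0% by chance) put the depth at 55700000 to 76250000 reads. Read numbers were estimated from this depth and the GENCODE M21 exon length of each gene, which may differ from the length the authors used. They cover counting error only.

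The 9 genes, 12 pathway lists and 15 marker lists were chosen with earlier results of these data known. Named genes were all 9, up to 4 called genes per direction of each list, their ligands, partners and paralogs, and the 3 genes of most similar pattern, leaving out predicted genes. Defining markers, neighbouring genes, Adrbk2, Grk4 and the fifth called genes of the RET list (Frs2 and Shc1) were named after their values were seen. Older symbols were used for 6 list genes. Lists of adrenergic, dopamine and further neuropeptide receptors are not reported here, nor are some genes of other lists. Fits with other pseudocounts, filters, scalings and priors, a replicate block, and each library left out were compared. Coordinates are those of GENCODE M21 (GRCm38).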

Additional observations from a re-analysis of the deposited data

How the results depend on the processing

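Across the 14 alternatives the direction of every tested receptor gene was the same. The calls of Ret, Ramp1 and Calcrl held in all of them, Vipr2 lost its call in 1, Ramp3 lost its call in 7, and Nmur1, not called in the reported fit, passed in 3. The number of receptor genes higher in SI-ILC2s was 3, and 1 to 3 with a library left out, the lowest without SI-ILC2 replicate 2. It was 2 in every fit without a library for those higher in WAT-ILC2s. With a library left out, 983 to 1595 genes were called toward SI-ILC2s and 1492 to 2551 toward WAT-ILC2s, the lowest of these without SI-ILC2 replicate 1. Over all tested genes the median log2 change was -0.15 as deposited, 0.00 after median-of-ratios scaling, -0.02 after quantile normalization and -0.26 with equal sums. Relative to these medians, Ret, Vipr2, Ramp3 and Nmur1 stayed above and Calcrl and Ramp1 stayed below. Of 336 recomputed list counts, 42 moved by more than 1.5 times or changed to or from 0, and most lists have few tested genes. With a replicate block the count higher in SI-ILC2s was 2271, and Nmur1 passed (adjusted p = 0.000321). The cause of this rise was not tested. The deviations of libraries with the same replicate number had a correlation of 0.57 across genes, but the labels do not say that the numbers pair the libraries. Fits with a block or without a library have 1 residual degree of freedom and lean on the prior, and a lone library is assumed to vary like the other tissue's. At about 7 to 52 reads per library, Vipr1, Gfra2 and Chrna4 did not reach the filter, and depth limits what can be said of them.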
